A study of Glycine max with 8 samples.

Results

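Among the transcripts measured in soybean leaves through a drought, a re-watering and a further drought, 631 stood higher 1 day after re-watering than in the leaves before it. They were picked from the authors' normalized table of intensities, in which 60228 of 60386 entries carry a Glyma transcript name. A transcript was included when the lower of its WT2 arrays was more than 2-fold above the highest of the 4 WT1 and DR1 arrays and its mean log2 intensity at WT2 was at least 6. The 631 transcripts are 1.05% of the Glyma entries, and they come from 587 loci. Names ending in _UE, 29 in all, stand for the unique exon of a transcript, which the array measures apart from the transcript itself.

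All groups were primary leaves of Glycine max cv. Daepoong, a Korean cultivar, from seedlings grown in a chamber and watered from a tray beneath the plate. DR2 leaves had passed through a first drought, 1 day of re-watering and a second drought of 4 days, and WT2 leaves through the first drought and the 1 day of re-watering. DR1 leaves came from 7-day-old seedlings left without water for 4 days, and WT1 leaves from the plate that stayed watered. The DR1 labels say 4 hours, but the paper and the treatment protocol say 4 days, and 4 days is taken here. Each condition had 2 biological replicates, each hybridised to 1 single-colour array, and the leaves of several seedlings made up a sample. No leaves that had never met drought were sampled at the time of WT2 or DR2, so recovery from drought and the greater age of the WT2 and DR2 seedlings cannot be told apart.

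Leaves that lose water close their stomata, stop expanding and cut back the synthesis of proteins and chlorophyll, while transcripts for protective proteins accumulate. When water returns, turgor is regained within hours, and protein synthesis and growth start again. A transcript may then return to its starting level, stop short of it or pass beyond it. Soybean descends from an ancient polyploid, so many of its genes have a close duplicate on another chromosome.

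The files pair no Glyma name with a function, and functions are known here only through the Pfam protein domains that the parts of the paper's tables used here give for 3664 of the 60228 Glyma transcripts. Of the 631 transcripts, 22 have such a domain. Of the 24 that appear in those tables, 13 do so because they belong to a list of drought-repressed transcripts that was chosen on these samples, so the annotated transcripts are not a random sample of the 631. The other transcripts are given by name only. No sequence is printed, and no genome coordinates were used. The number before the G in a name is the chromosome.

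The median spot signal lay between 87 and 159.5 units over the 8 arrays, against a local background of 27 to 33 units, and no array had a saturated spot. One slide held WT1 and DR1, and another held WT2 and DR2. DR2 was therefore compared with WT2, and DR1 with WT1, within a slide, whereas for WT2 or DR2 against WT1 or DR1 the slide and the treatment cannot be told apart. The levels below are log2 intensities from the array files after background correction and quantile normalization, averaged over the probes of a transcript. All 631 transcripts were among the 55087 tested, and at WT2 both arrays detected each of them, which the rule on high WT2 values favours. Detected means that a probe was well above background, a call of the software that read the arrays.

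The typical transcript of the 631 was a moderately bright one whose level stayed flat through the first drought, was about 3-fold higher after re-watering, and was below its starting level at the second drought. The median over the 631 transcripts was 8.24 and 8.32 on the WT1 arrays, 7.99 and 8.07 on the DR1 arrays, 9.84 and 10.29 on the WT2 arrays, and 7.14 and 7.04 on the DR2 arrays. The median over all Glyma transcripts tested stayed between 7.86 and 7.92 on the 8 arrays. The highest of the 4 medians by condition was that of WT2, which the rule sets above WT1 and DR1, and the lowest was that of DR2, whose arrays the rule does not use.

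**Figure D1:**
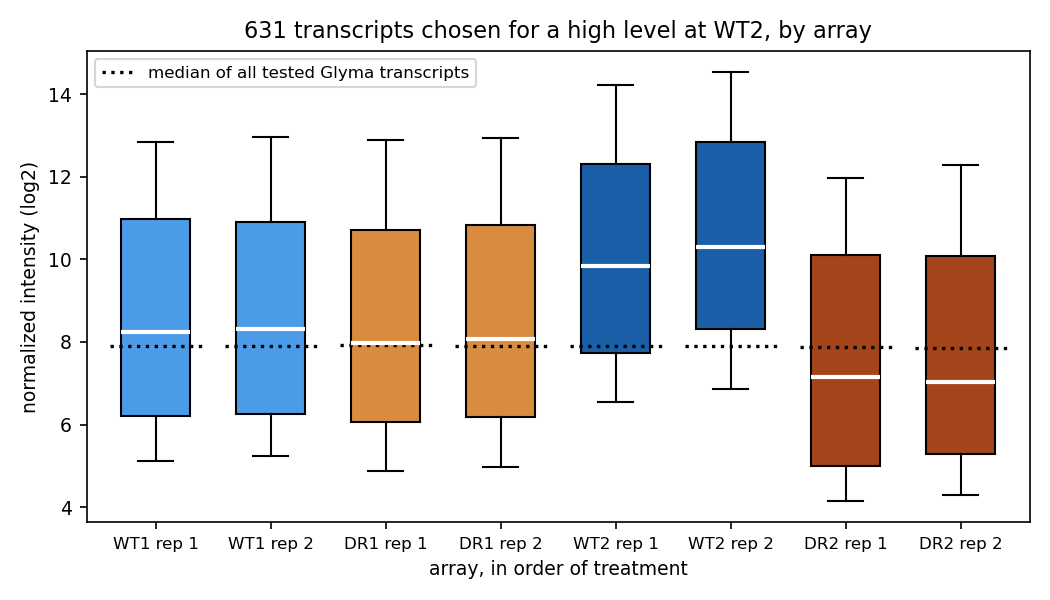
Log2 intensity of the 631 transcripts on each array, in the order of the treatments, with the box from the lower to the upper quartile, the white line at the median, and whiskers from the 10th to the 90th percentile. Dotted lines give the median of all Glyma transcripts tested, near 7.9 on every array. WT2 is high by the choice of the transcripts, and the DR2 medians of 7.14 and 7.04 are the lowest.

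The difference between WT2 and the earlier conditions chose these transcripts, so it is described here without a test. The median of WT2 minus DR1 was 1.63 on the log2 scale and that of WT2 minus WT1 was 1.61, which is 3.10-fold and 3.05-fold. Most transcripts lay close to the limit of the rule. In the authors' table, the lower WT2 array was a median of 2.31-fold above the highest WT1 or DR1 array, with 204 transcripts over 2.5-fold, 76 over 3-fold and 13 over 4-fold. The same rule turned round, with both WT2 arrays more than 2-fold below the lowest WT1 or DR1 array and a mean log2 level of at least 6 on those 4 arrays, found 26 transcripts. Of the 631, 545 were called higher at WT2 than at WT1, against 2.69% of all transcripts tested, and 604 higher at WT2 than at DR1, against 13.5%, counts that the rule brings with it.

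The WT2 arrays were not alike in these transcripts. WT2 replicate 2 lay above WT2 replicate 1 for 559 of the 631 transcripts, against 53.8% of all transcripts tested, with a median difference of 0.39 for the 631 and 0.05 for all. At DR2, replicate 2 lay above replicate 1 for 390 transcripts, against 54.4% of all. The lower WT2 array of the rule was replicate 1 for 561 transcripts and replicate 2 for 70. Without WT2 replicate 1 the rule would have taken 2133 transcripts, and without WT2 replicate 2 it would have taken 740, so replicate 1 decides where the limit falls. The median SD between replicates was 0.10 in WT1 leaves, 0.07 in DR1, 0.28 in WT2 and 0.23 in DR2 leaves (n = 2 arrays each).

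Glyma.02G120300-1 and Glyma.01G062100-1 had the widest margins in the authors' table, 10.8-fold and 9.37-fold. The level of Glyma.02G120300-1 was 6.51 and 6.93 at WT1, 6.33 and 6.59 at DR1, 10.41 and 10.74 at WT2, and 7.60 and 5.20 at DR2. Glyma.01G062100-1 had 7.13 and 7.32 at WT1, 6.67 and 6.97 at DR1, 10.61 and 10.89 at WT2, and 7.04 and 5.11 at DR2. Both were low and level in WT1 and DR1 leaves, and their DR2 arrays differed from each other by about 2 on the log2 scale while both stayed below WT2. At DR2 against WT2, Glyma.02G120300-1 fell by 4.17 ± 0.63 (SE of the limma model, adjusted p = 0.00044) and Glyma.01G062100-1 fell by 4.67 ± 0.52 (adjusted p = 7.5e-05 in limma). Neither had a probe well above background on both DR2 arrays, so the depth of these falls is uncertain. With 1 array left out, DR2 minus WT2 ranged from -5.38 to -2.97 for the first and from -5.64 to -3.71 for the second. The next margins were those of Glyma.07G137100-1 at 5.47-fold, Glyma.07G185100-2 at 5.01-fold, Glyma.19G119200-1 at 4.96-fold and Glyma.20G050800-1 at 4.80-fold. For Glyma.07G185100-2 no WT1, DR1 or DR2 array was well above background, so its margin rests on levels of 7.04 and 7.58 at WT2 against a dim signal.

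The brightest of the 631 transcripts were already bright before the drought. Brightness depends on the probes as well as on the transcript, so it is no measure of abundance between transcripts. Glyma.19G242700-1 had 14.18 and 14.21 at WT1, 14.47 and 14.50 at DR1, 15.52 and 15.90 at WT2, and 13.50 and 13.78 at DR2. Glyma.20G160500-1, Glyma.03G142300-1, Glyma.19G145000-1, Glyma.03G197600-1 and Glyma.19G195500-1 followed, with WT2 arrays between 15.16 and 15.65 and WT1 and DR1 arrays between 13.89 and 14.38. For these 6 the DR2 level fell by 2.01 to 2.81 against WT2, and the largest adjusted p among them was 0.00012 in limma.

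Just inside the fold limit stood Glyma.09G207600-1 and Glyma.01G176400-1, each at 2.001-fold, and just outside it Glyma.15G077400-1, at 2-fold to 3 decimals, and Glyma.05G060100-1 at 1.999-fold. Their levels are given as a description. Glyma.01G176400-1 had 5.81 and 5.88 at WT1, 6.02 and 6.33 at DR1, and 7.32 and 7.83 at WT2, and Glyma.15G077400-1 had 8.44 and 8.41, 8.74 and 8.93, and 9.96 and 10.30 on the same arrays. DR2 minus WT1 was -1.50 and -1.02 for the pair inside the limit, whose DR2 arrays were not well above background, and -0.55 and -0.37 for the pair outside it. Just inside the limit on level were Glyma.06G154600-1 with a mean log2 of 6.07 at WT2 and Glyma.17G222800-1_UE with 6.11, and just outside it Glyma.17G026000-1 with 5.97 and Glyma.04G135300-2 with 5.85. In all, 18 transcripts met the fold limit and missed the limit on level.

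The DR2 arrays were not used by the rule, whereas the WT2 arrays were. Of the 631, 596 were called lower at DR2 than at WT2, with an adjusted p below 0.05 in the limma model and a change of more than 2-fold, against 28.7% of all transcripts tested. Only 2 were called higher, or 4 without DR2 replicate 2 and 1 without WT1 replicate 1, WT1 replicate 2 or WT2 replicate 1, against 27.5% of all transcripts. The median of DR2 minus WT2 was -2.55 for the 631 transcripts, a 5.87-fold lower level at DR2, and -0.00 for all transcripts tested. Since the WT2 arrays were chosen high, a lower DR2 is favoured by the choice, and the counts describe these transcripts and do not test them as a group.

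Both DR2 arrays lay below both WT2 arrays for 608 of the 631 transcripts, against 40.9% of all transcripts tested, and more than 2-fold below them for 557, against 22.1%. The arrays overlapped for 19 transcripts, and both DR2 arrays lay above both WT2 arrays for 4, against 40.7%. WT2 was therefore the highest condition for 608 of the 631, and for the rest the DR2 arrays overlapped the WT2 arrays or exceeded them. With only the 4 arrays of the slide that holds WT2 and DR2, 595 were called lower. For 147 transcripts no DR2 array was well above background, and for 142 of them DR2 was more than 2-fold below WT2 even with the dim signal set to the lowest signal well above background. With those bounds the median of DR2 minus WT2 was -2.48.

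**Figure D2:**
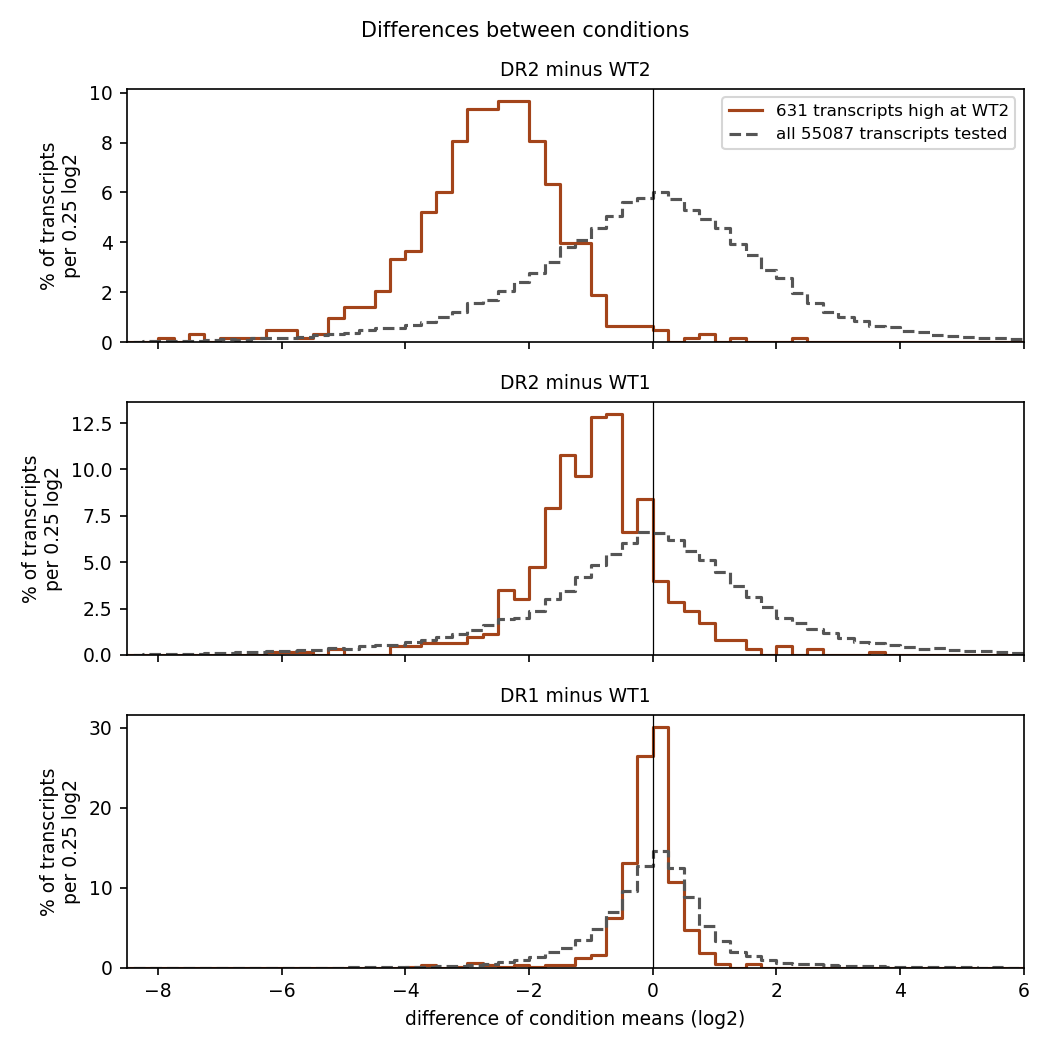
Share of transcripts in steps of 0.25 of the log2 difference for DR2 minus WT2, DR2 minus WT1 and DR1 minus WT1, for the 631 transcripts (solid line) and all 55087 transcripts tested (dashed line). The 631 centre on -2.55, -0.92 and -0.01, and all transcripts on values between -0.01 and 0.05.

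The lowest fitted DR2 minus WT2 values were those of 4 transcripts. Glyma.01G142400-1 had 6.74 and 6.55 at DR2, against 14.53 and 14.65 at WT2, and fell by 7.95 ± 0.29 (SE, adjusted p = 4.0e-07 in limma). It also stood lower in the first drought, with 10.57 and 11.42 at DR1, against 12.63 and 12.83 at WT1. Glyma.16G053200-1 and Glyma.19G096200-1, both with the Pollen_Ole_e_I domain of small secreted proteins related to an olive pollen allergen, had DR2 levels of 4.77 and 5.28 and of 4.51 and 5.43, not well above background, against WT2 levels of 12.09 and 12.65 and of 12.05 and 12.53. They were at least 163-fold and at least 153-fold lower at DR2 than at WT2 (adjusted p = 5.8e-07 and 1.1e-06 in limma). Glyma.06G324300-1, with 3.51 and 3.94 at DR2, also not well above background, against 10.13 and 10.97 at WT2, was at least 59.8-fold lower (adjusted p = 1.2e-06 in limma). Its place in this order is not settled, since the Cpn10 transcript Glyma.17G047200-2 had a bound of 68.5-fold.

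These falls came in leaves whose photosynthetic transcripts had also dropped. The summed intensity of 16 leaf mesophyll transcripts, those annotated Chloroa_b-bind, RuBisCO_small or RbcS, was 11347 and 13902 units at DR2, against 1069690 and 1116850 units at WT2, 274187 and 325519 units at DR1, and 1262480 and 1242280 units at WT1. Over the same arrays the sum of 22 markers of dividing cells was 83264 and 105371 units at DR2, against 29619 and 34346 units at WT2. The sum of 22 vascular markers was 35136 and 24284 units at DR2, against 26021 and 30580 at WT2, and that of 25 epidermal markers was 155519 and 182517 units at DR2, against 90715 and 72884 at WT2. A sum follows its brightest transcripts and need not hold for most of them. In a longer list of 33 cell cycle and DNA replication transcripts, 14 were called lower and 9 higher at DR2 than at WT2 (median -0.88). For 74 lipid transfer and cuticle transcripts the counts were 40 and 26 (median -1.65). For 23 lignin and vascular cell wall transcripts they were 11 and 10 (median 0.08), against 28.7% and 27.5% of all transcripts tested. None of the 631 transcripts is among the markers summed here. The part of these shifts in the fall of the 631 was not tested, and in whole leaves fewer cells of a type and less RNA per cell cannot be told apart.

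Many of the 631 stood lower at DR2 than in the leaves before re-watering. At DR2 against WT1, 281 were called lower, against 27.1% of all transcripts tested, and 16 higher, against 25.6%. At DR2 against DR1, 279 were called lower, against 21.9%, and 17 higher, or 28 without DR2 replicate 2, against 18.3%. The rule chose low values at WT1 and DR1, which favours a higher DR2. These comparisons cross the slides, and the DR2 seedlings were older, so slide, age and treatment cannot be told apart in them. The median of DR2 minus WT1 was -0.92, and that of DR2 minus DR1 was -0.88.

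Both DR2 arrays lay below all 4 WT1 and DR1 arrays for 461 transcripts, against 33.7% of all transcripts tested, above all 4 for 38, against 32.1%, and neither for 132, against 34.2%. In total 235 were called lower at DR2 than at both WT1 and DR1, against 18.2% of all transcripts. Of the 281 called lower than WT1, 89 were not well above background on any DR2 array, and 60 of these were more than 2-fold lower also at their bound. The count against WT1 depended on the background correction: with an offset of 50 added to the signals it was 179, and that against DR1 was 170.

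**Figure D3:**
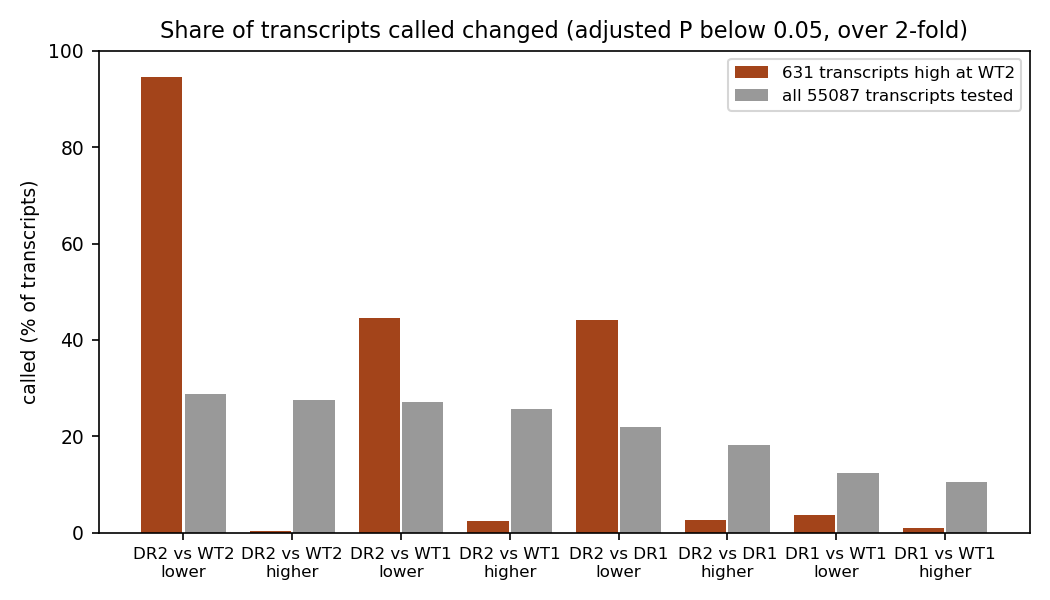
Share of the 631 transcripts (left bar of each pair) and of all 55087 transcripts tested (right bar) called lower or higher in 4 comparisons, with an adjusted P below 0.05 and a change over 2-fold. The largest gap is at DR2 against WT2, where 596 of the 631 were called lower and 28.7% of all transcripts were.

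The first drought moved few of these transcripts. At DR1 against WT1, 23 of the 631 were called lower, against 12.4% of all transcripts tested, and 6 higher, against 10.6%. The median of DR1 minus WT1 was -0.01 for the 631, with 80% of them between -0.57 and 0.45, and 0.05 for all transcripts, with 80% between -1.23 and 1.08. Both DR1 arrays lay below both WT1 arrays for 222 transcripts, against 36.2% of all, and above both for 170, against 39.9%. The rule sets no direction between DR1 and WT1. A transcript that differed much between them had to exceed the higher of them at WT2, so the low counts are not independent of the rule.

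Among the 23 transcripts that fell in the first drought, 22 were also called lower at DR2 than at WT1, against 85.5% of all transcripts that fell in it, and the remaining one was Glyma.11G117200-1. Of the 602 that were not called in the first drought, 259 were called lower at DR2 than at WT1 and 14 higher, against 21.1% and 22.6% of all transcripts not called in it. The first and the second drought are both set against the same WT1 arrays here, so these counts are not independent of each other. The 6 transcripts called higher in the first drought were Glyma.10G011800-1, Glyma.10G035900-1, Glyma.13G122300-1, Glyma.17G148200-1, Glyma.20G017200-1 and Glyma.20G197100-1, with rises of 1.07 to 1.51. The largest was that of Glyma.20G197100-1, which had 10.37 and 10.76 at DR1, against 8.87 and 9.23 at WT1 (adjusted p = 0.0028 in limma). Its level was 9.71 and 9.42 at DR2, against 11.92 and 12.24 at WT2. Without DR1 replicate 2 the count of 6 was 3. These 6 were named after their values were seen.

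A small number of transcripts did not come down in the second drought. The largest rise was that of Glyma.15G134200-1, which had 9.51 and 7.38 at DR2, against 6.21 and 6.01 at WT2, 4.81 and 4.34 at DR1, and 4.76 and 4.68 at WT1. Its change of 2.34 ± 0.57 at DR2 against WT2 was called (adjusted p = 0.0059 in limma), and without DR2 replicate 1 or 2 the change was 1.27 or 3.40. The other transcript called higher at DR2 than at WT2 was the unique-exon entry Glyma.04G201000-1_UE, with 5.92 and 7.48 at DR2, against 5.06 and 5.64 at WT2 (adjusted p = 0.034 in limma). The transcript of the same locus, Glyma.04G201000-1, had 7.88 and 7.02 at DR2, against 6.89 and 7.71 at WT2, and its arrays overlapped (adjusted p = 0.74 in limma).

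Glyma.06G193500-1, Glyma.04G158200-1 and Glyma.06G206900-1 had the next largest DR2 minus WT2, at 0.92, 0.81 and 0.69, and did not pass the test (adjusted p = 0.12, 0.089 and 0.12 in limma). In each of the 3 the higher DR2 array was replicate 1, with 10.50, 8.21 and 9.12, against 9.54, 6.97 and 7.90 on replicate 2. All 3 were called higher at DR2 than at WT1, by 2.73, 2.20 and 2.50, and they belong to the 16 called so. Of the 631 transcripts, 33 were called neither way at DR2 against WT2, of which 30 changed by less than 2-fold. For Glyma.15G023700-1 the difference was -0.01 ± 0.21, with 7.40 and 7.21 at DR2, against 7.45 and 7.18 at WT2, and 5 of the 33 were bright transcripts whose WT2 arrays lay between 13.62 and 14.83.

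Of the 22 annotated transcripts, 6 carry a ribosomal protein domain. Ribosomal proteins build the small and large ribosomal subunits, and their names carry S for the small subunit and L for the large one. The study's tables annotate 20 Glyma transcripts as ribosomal proteins, 14 of which are listed only in its table of signals, of which a part was used here. In 12 of the 20 both WT2 arrays lay above all WT1 and DR1 arrays in the authors' table, against 12.8% of all Glyma transcripts there. The 6 are among these 12 because the rule requires it, and the ribosomal transcripts are described here because they include the 6. The count of 12 is therefore not independent of the rule. Since the 20 are a small and selected part of soybean's ribosomal protein genes, these counts describe these transcripts and no more.

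Glyma.11G003700-1, with a Ribosomal_S8 domain, was the brightest of the 6 in the authors' table at WT2. It had 12.99 and 13.12 at WT1, 13.05 and 12.78 at DR1, 14.34 and 14.81 at WT2, and 11.58 and 11.87 at DR2. At DR2 it fell by 2.85 ± 0.25 against WT2 and fell by 1.33 ± 0.25 against WT1 (SE, adjusted p = 1.9e-05 and 0.0015 in limma). Glyma.10G223400-1, with a Ribosomal_L3 domain, and Glyma.03G049900-1, with a Ribosomal_L14e domain, kept the same shape at a similar brightness. The Ribosomal_L3 transcript had 11.85 and 11.63 at DR2, against 14.52 and 14.60 at WT2, and the Ribosomal_L14e transcript had 10.81 and 11.08 at DR2, against 13.45 and 13.84 at WT2. All 3 lay below their WT1 level at DR2 by more than 2-fold.

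The other 3 were dimmer. Glyma.02G307100-1, with a Ribosomal_L18p domain, had 7.95 and 7.61 at DR2, against 10.31 and 11.09 at WT2. Glyma.19G085300-1, with the Ribosomal_L9_N domain of bacterial-type ribosomes, had 5.50 and 6.17 at DR2, against 9.17 and 9.91 at WT2. Glyma.10G106200-1, with a Ribosomal_L18A domain, had 6.66 and 7.07 at DR2, against 8.06 and 8.20 at WT2, as the mean of 2 probes that disagreed. One probe had 9.38 and 9.75 at DR2, against 12.32 and 12.65 at WT2, and the other had 3.93 and 4.40 at DR2, against 3.81 and 3.75 at WT2. Its DR2 minus WT2 was -1.27 in the fit and -2.84 in the authors' table, and it was not called when each array was scaled to its 75th percentile without quantile normalization or when the processed signal was used, at -0.99 in both. In all 6 the DR1 level stayed within 0.46 of WT1 and was not called, and all 6 were called lower at DR2 than at WT2. The DR2 level of the other 5 fell by 2.70 to 3.70 in the fit. Over the 631, the fit and the authors' table were more than 1 apart in DR2 minus WT2 for 19 transcripts.

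The ribosomal transcripts outside the 631 did not all follow this shape. Glyma.09G077600-1 and Glyma.15G185000-1, with a Ribosomal_L18p domain like that of Glyma.02G307100-1, had a DR1 minus WT1 of -3.02 and -2.18 and a WT2 minus WT1 of 0.60 and 0.63. Glyma.18G050600-1, with a Ribosomal_L16 domain, had 15.68 and 14.82 at DR2, against 8.38 and 8.54 at WT2. Over the 20, 16 were called lower and 3 higher at DR2 than at WT2, and 6 were called lower and 3 higher at DR1 than at WT1.

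All 3 transcripts that the study's tables annotate with Cpn10, the co-chaperonin that caps the protein-folding barrel of mitochondria and plastids, were among the 631. Unlike the ribosomal ones, they fell at both droughts. Glyma.17G047200-1 had 11.64 and 12.03 at WT1, 9.01 and 9.06 at DR1, 13.59 and 13.84 at WT2, and 7.63 and 7.62 at DR2. Glyma.13G112500-1 had 11.01 and 11.33 at WT1, 8.94 and 9.02 at DR1, 13.03 and 13.31 at WT2, and 7.00 and 7.26 at DR2. Each condition stood apart from the others in both transcripts, with WT2 highest and DR2 lowest.

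At DR2 against WT2, Glyma.17G047200-1 fell by 6.09 ± 0.22 and Glyma.13G112500-1 fell by 6.04 ± 0.23 (SE, adjusted p = 3.9e-07 and 4.4e-07 in limma). At DR1 against WT1 they fell by 2.80 and 2.19 (adjusted p = 0.00013 and 0.00035 in limma). Glyma.17G047200-2, another transcript of the Glyma.17G047200 locus measured by 1 probe, was at least 68.5-fold lower at DR2, where no array was well above background, than at WT2 (adjusted p = 1.0e-06 in limma). All 3 Cpn10 transcripts are on the list of drought-repressed transcripts that the study chose on these samples, so their fall at DR1 is not independent of how they came to be annotated. The 6 ribosomal transcripts are listed only in the table of signals, so the contrast with them at DR1 is not independent of it either.

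**Figure D4:**
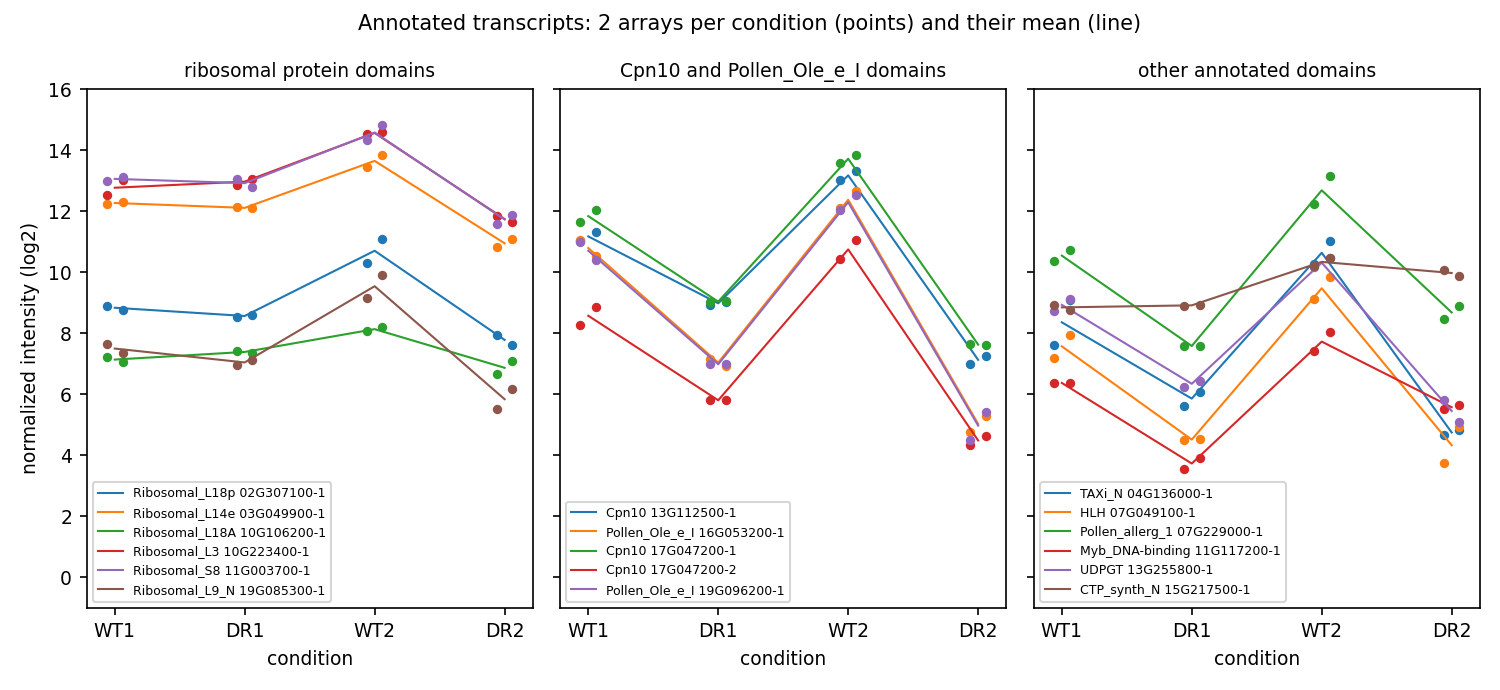
Log2 intensity of 17 annotated transcripts at WT1, DR1, WT2 and DR2, with a point for each of the 2 arrays and a line through their means. The 6 ribosomal transcripts stay level between WT1 and DR1, whereas the Cpn10 and Pollen_Ole_e_I transcripts are lower at DR1, and Glyma.15G217500-1 with a CTP_synth_N domain stays near its WT2 level at DR2. The Cpn10 and Pollen_Ole_e_I transcripts were annotated through a list chosen for a fall at DR1.

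In the first drought the Pollen_Ole_e_I transcripts had the lowest fitted DR1 minus WT1 of the annotated ones. Glyma.16G053200-1 had 7.16 and 6.91 at DR1, against 11.05 and 10.53 at WT1, and Glyma.19G096200-1 had 6.99 and 6.98 at DR1, against 11.00 and 10.40 at WT1. The differences of the pair, -3.76 and -3.72, were nearly equal. Both transcripts are on the list of drought-repressed transcripts, so their fall at DR1 is not independent of how they came to be annotated. Whether the probes of one also bind the transcript of the other was not tested.

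Transcripts with the domains of an expansin, a sugar-transferring enzyme and a protease-like protein were among the other annotated ones called lower at both droughts. Glyma.07G229000-1, with the Pollen_allerg_1 domain found in expansins, which loosen the cell wall during growth, had 10.36 and 10.72 at WT1, 7.58 and 7.58 at DR1, 12.22 and 13.14 at WT2, and 8.46 and 8.89 at DR2. Its level at DR2 was called higher than at DR1, and of the other 22 that fell in the first drought this holds only for Glyma.11G117200-1. Glyma.13G255800-1, with the UDPGT domain of enzymes that attach sugars to small molecules such as flavonoids and hormones, had 5.80 and 5.10 at DR2, against 10.17 and 10.45 at WT2. Glyma.04G136000-1, with a TAXi_N domain of aspartic-protease-like proteins, had 4.68 and 4.81 at DR2, against 10.25 and 11.02 at WT2. These transcripts too were annotated through the list of drought-repressed transcripts, so their fall at DR1 is not independent of that.

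There were 2 transcripts with DNA-binding domains of transcription factors. Glyma.07G049100-1, with a helix-loop-helix domain, had 4.50 and 4.52 at DR1, not well above background, against 7.19 and 7.95 at WT1, which is at least 8.11-fold lower (adjusted p = 0.0012 in limma), and 3.73 and 4.92 at DR2, against 9.10 and 9.84 at WT2. Glyma.11G117200-1, with a Myb domain, had 3.56 and 3.90 at DR1, not well above background, against 6.38 and 6.36 at WT1, at least 3.72-fold lower (adjusted p = 0.00028 in limma). It was the 1 transcript of the 23 not called at DR2 against WT1, with 5.51 and 5.64 at DR2, and its DR2 level was called higher than its DR1 level. Both transcripts were annotated because the study chose them as drought-repressed on these samples, which favours their falls and p values at DR1.

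Domains tied to RNA handling in mitochondria and plastids appeared in 3 dim transcripts. The study's tables annotate 10 transcripts with PPR_2 and 1 with PORR. Glyma.01G159100-1 and Glyma.15G193700-1 carry a PPR_2 domain, whose repeats bind RNA, and Glyma.11G203100-1 carries a PORR domain, known from plant organelle RNA splicing. Their WT2 arrays lay between 6.91 and 7.40, and no DR2 array was well above background. They were at least 5.67-fold, 5.50-fold and 6.31-fold lower at DR2 than at WT2 (largest adjusted p = 4.2e-05 in limma), and none was called at DR1 against WT1. All 3 are listed only in the table of signals, so the lack of a call at DR1 is not independent of how they came to be annotated.

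Glyma.15G217500-1 was the exception among the 22. It carries the CTP_synth_N domain of CTP synthase, which makes a building block of RNA and of phospholipids, and is measured by 6 probes. It had 10.06 and 9.88 at DR2, against 10.21 and 10.46 at WT2, and the difference of -0.36 ± 0.21 did not pass the test (adjusted p = 0.16 in limma). Against WT1, where it had 8.92 and 8.77, it was higher by 1.13 at DR2 (adjusted p = 0.0016 in limma). The remaining annotated transcripts were Glyma.08G345900-1 with an adh_short_C2 domain and Glyma.08G366600-1 with a DUF4378 domain. They were at least 9.41-fold and 13.1-fold lower at DR2 than at WT2 (adjusted p = 2.0e-05 and 3.8e-06 in limma). The unique-exon entry Glyma.08G345900-1_UE, measured by 1 probe, did not share the fall of Glyma.08G345900-1. It had 11.83 and 12.43 at DR2, against 10.98 and 9.37 at WT2. Its highest arrays were those of DR1, with 13.56 and 13.28, against 9.46 and 9.42 at WT1.

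The 631 make up 1.05% of all Glyma entries, and 22 of the 3664 annotated transcripts are among them. Of 39 lists of transcripts by domain, 5 held any of the 631. These were the ribosomal proteins with 6 of 20, cell wall loosening with 1 of 47, MYB factors with 1 of 66, bHLH factors with 1 of 41 and UDP-glycosyltransferases with 1 of 37. The other 34 lists held none. At the shares above most lists of these sizes would hold few or none, so a list with 1 or none is no result about its family. The lower WT2 array minus the highest WT1 or DR1 array in the authors' table had a median of -2.56 on the log2 scale for 20 LEA proteins and dehydrins, which protect cells that lose water, and of -3.03 for 39 PP2C phosphatases, which hold back abscisic acid signalling. The same median was 0.38 over the 20 ribosomal transcripts, -0.56 over the 16 mesophyll transcripts and -0.64 over all Glyma transcripts. The ribosomal median includes the 6 transcripts that the rule chose for a high value of this difference. This difference is low by construction for a transcript raised at DR1. Of the 20 LEA and dehydrin transcripts 15 were called higher at DR1 than at WT1, of the 39 PP2C ones 31 and of the 20 ribosomal ones 3, against 10.6% of all transcripts tested. The medians of the lists therefore depend on how their transcripts came to be annotated. Of the 3664 annotated transcripts, 878 are listed only in that table of signals, and the rest were listed because they changed in the first drought.

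The levels of a transcript combine those of its probes, so a high WT2 on the single probes also comes from the rule. The 631 transcripts were measured by 1514 probes, of which 1481 had both WT2 arrays above all 4 WT1 and DR1 arrays, against 13.1% of all probes of the transcripts tested. The margin was more than 2-fold for 1227, against 1.17% of all probes, and 1436 had both DR2 arrays below both WT2 arrays, against 40.5%. Of the 631, 53 rested on 1 probe, 362 on 2, 175 on 3 and 41 on more. For 548 of the 578 with several probes, every probe had both WT2 arrays above the 4 earlier ones. The probes of a transcript overlap, so they are not independent of each other.

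Other entries of the same loci had smaller margins. The 587 loci held 117 further entries in the authors' table, and in 90 of them both WT2 arrays lay above all WT1 and DR1 arrays by any margin, against 12.8% of all Glyma transcripts there. Each locus was chosen through an entry that is high at WT2, so this count is not independent of the rule. The lower WT2 array minus the highest WT1 or DR1 array had a median of 0.39 on the log2 scale over the 117, 1.20 over the 631 and -0.64 over all. Of the 82 loci with several transcripts, 18 had all of their entries among the 631. At Glyma.02G092000 both transcripts were included, with 7.25 and 8.19 at WT2 for the first and 7.95 and 8.42 for the second, against 5.53 to 5.84 and 5.98 to 6.42 over DR1 and WT1.

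Some loci split. Glyma.18G156100-1 had 6.64 and 6.72 at DR1, against 7.30 and 7.35 at WT1, and 8.63 and 9.33 at WT2. Glyma.18G156100-2, measured by 1 probe, had 12.08 and 11.75 at DR1, against 8.56 and 8.55 at WT1, and 9.89 and 8.30 at WT2. The first was highest after re-watering and the second in the first drought. Glyma.09G103400-2, with a Ribosomal_S7 domain, was likewise highest at DR1, with 15.96 and 15.89. The unique-exon entry Glyma.09G103400-1_UE of that locus, with 10.24 and 10.42 at WT2, is among the 631 and has no listed domain of its own. It had 9.82 and 9.69 at DR2 and was called neither way at DR2 against WT2. At Glyma.08G345900 the unique-exon entry was also highest at DR1, with 13.56 and 13.28. Glyma.08G345900-1 was highest at WT2, with 8.34 and 9.12. These loci were picked after their values were seen.

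Of the 587 loci, 585 were spread over all 20 chromosomes. The other 2 were among the 365 loci named with a U in place of a chromosome. By chromosome, they made up from 0.97% of the loci measured on chromosome 16 to 1.88% on chromosome 11, against 1.24% of all loci measured. There were 11 pairs of loci next to each other in the order of the names of the 47186 loci in the authors' table. Whether 11 is more than 587 loci spread at random would give was not tested. Glyma.11G003600 lay next to the ribosomal Glyma.11G003700, and Glyma.11G003600-1 had 11.97 and 12.34 at DR2, against 14.79 and 15.28 at WT2. Glyma.19G145000-1 lay next to Glyma.19G145100-1, which had 12.26 and 12.51 at DR2, against 14.69 and 15.05 at WT2. Glyma.03G142200-1, next to Glyma.03G142300-1, had 11.43 and 11.53 at DR2, against 14.25 and 14.56 at WT2. In each of these pairs the transcripts of both loci were called lower at DR2 than at WT2, as were 596 of the 631.

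The fall at DR2 was seen among dim and bright transcripts. Ranked by the mean of the 8 arrays, the 211 dimmest transcripts had a median DR2 minus WT2 of -2.53, the 209 in the middle -3.07 and the 211 brightest -2.29, with 193, 197 and 206 called lower. The 16 transcripts called higher at DR2 than at WT1 lay among the dimmest 211 and the 209 in the middle, with 6 and 10. Of the 147 transcripts with no DR2 array well above background, 138 were among the dimmest 211.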

How the data were processed

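Feature Extraction 11.5.1.1 had read the deposited intensities, a median per spot and a median of its local background, per the file headers. The transcripts were chosen on a further table of intensities, which the authors background-corrected and normalized with limma and deposited on a linear scale. From the array files, the median signal was corrected with limma's normexp method (limma 3.58.1, R 4.3.3, offset 0), quantile normalized over all spots, and averaged on the log2 scale over the probes of a transcript, without control and outlier spots. The tests covered 55087 of 77681 transcripts, those with a probe well above background in both replicates of some condition. One mean per condition was fitted over the 8 arrays with lmFit and eBayes, P values were adjusted by Benjamini-Hochberg over all transcripts tested, and a call needed an adjusted P below 0.05 and over 2-fold. Adjusted p values in the text come from this limma model. Tested on simulated data for 55087 transcripts, of which 200 differed by a log2 value of 3, the model recovered 168 at DR2 against WT2 and 167 at DR1 against WT1, with 8 and 9 false calls. The simulation had independent noise and no slide effect. In the data, 28.7% of transcripts were called lower and 27.5% higher at DR2 against WT2, far more than were changed in the simulation. Its counts therefore need not hold for the data. Bounds replace a dim signal by the lowest signal well above background on that array. The precision rests on 2 arrays per condition.

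Samples were grouped by their labels. The members and the lists of domains were chosen with earlier results of these data known. The domain names come from the study's tables, which list 4464 of the Glyma transcripts. Named transcripts are the 6 with the widest margin, the 6 brightest at WT2, the 4 with the highest and the 4 with the lowest DR2 minus WT2, the brightest of a list with at least 5 members, and 2 on each side of the fold limit, all with a probe well above background on both WT2 arrays and unique-exon entries left out. Annotated transcripts and others outside this rule were named after their values were seen. Groups of 2 arrays were not tested for outliers.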

Additional observations from a re-analysis of the deposited data

How the results depend on the processing

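The number of transcripts that met the rule was 597 from the array values normalized here, of which 578 are among the 631, and 737 from the processed signal, of which 537 are. It was 1723 at a limit of 1.5-fold and 13 at 4-fold, and between 655 and 2133 with 1 array left out, the largest without WT2 replicate 1. The 596 transcripts lower at DR2 than at WT2 numbered 404 to 598 under the alternatives other than leaving out an array, with the 404 from the 433 transcripts detected in every condition, and 570 to 601 with 1 array left out. The 2 called higher there were 1 with the authors' table, an offset of 50, no filter on dim transcripts, a 4-fold limit or the shared slide alone, and 0 with detection in every condition or with limma's treat. They ranged from 1 to 4 with 1 array left out, with 4 without DR2 replicate 2.

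At DR1 against WT1, the 23 lower became 11 with detection in every condition, 13 at 4-fold and 12 with treat (16 to 24 with 1 array left out), and the 6 higher became 0 at 4-fold and 0 with treat (3 to 8 with 1 array left out, 3 without DR1 replicate 2). At DR2 against WT1, the 281 lower became 179 with an offset of 50, 165 with detection in every condition, 77 at 4-fold and 113 with treat, with 256 to 301 when 1 array was left out, and the 16 higher became 6 at 4-fold and 5 with treat, with 14 to 24. At DR2 against DR1, the 279 lower became 170, 179, 54 and 72 under the same settings, with 229 to 301, and the 17 higher became 11 with an offset of 50, 5 at 4-fold and 4 with treat, with 12 to 28, the most without DR2 replicate 2. A stricter limit or fewer transcripts lower these counts by construction. The cause of the change with the offset was not tested. No called transcript changed sign under any of these settings. Of 464 alternative values of DR2 minus WT2 for the 25 named transcripts, 459 kept their side of the threshold and 0 turned sign, Glyma.15G134200-1 lost its call with treat, and Glyma.06G193500-1, Glyma.04G158200-1 and Glyma.06G206900-1 were called higher without DR2 replicate 2, the first also without WT2 replicate 2.

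With the replicate number as a block, 597 were lower and 2 higher at DR2 against WT2, 24 and 6 at DR1 against WT1, 283 and 15 at DR2 against WT1, and 280 and 17 at DR2 against DR1. Same-numbered arrays did not deviate together, with correlations of their deviations from -0.31 to 0.30, so the numbers were not treated as pairs. With 2 arrays per condition and many DR2 signals near background, the depth of a fall at DR2 is known only as a bound for 147 transcripts.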
